A study of Mus musculus with 6 samples.

Results

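A group of 31 genes of endothelial and lymphatic vessel cells was followed in E13.5 mouse stomach. The genes are known markers of these cells and were picked by symbol, with earlier results of these data known. Each was read from the probe set annotated to that symbol alone, with the highest mean signal where a gene had several. All 31 were found among the 19938 genes with such a probe set, and 0 of them had more than 1. The RNA came from SmoM2 stomach, labelled Nkx3.2Cre;R26-SmoM2, and from wild type stomach. Each group had 3 replicates, each measured on 1 Affymetrix array. SmoM2 is a form of the hedgehog transducer Smoothened that signals without ligand. Nkx3.2Cre, a Cre that follows the mesenchymal gene Nkx3-2, switches it on from the Rosa26 locus. Wild type stomachs are described by genotype only, with no statement on the Cre or on littermates, and pooling of embryos is not stated for either group. The comparison asked how signal from vessel genes differed when the pathway was active in the tissue around the vessels.

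Endothelial cells line blood vessels and lymphatic vessels. Vascular endothelial growth factors bind the tyrosine kinase receptors Kdr, Flt1 and Flt4 on these cells and drive their growth, and the angiopoietins bind Tek, which stabilises the vessel wall together with pericytes. Cdh5 and Pecam1 hold the cells to each other, factors of the ETS, SOX and GATA families maintain their identity, and Prox1 sets the lymphatic fate. In the gut, the vessels grow within the mesenchyme that also receives hedgehog signals from the epithelium.

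Smo itself had a log2 change of 0.35 (SmoM2 minus wild type, adjusted p = 0.154). Its pathway targets Ptch1 and Gli1 had changes of 0.48 and 0.42 (adjusted p = 0.0174 and 0.0727). Hhip, another hedgehog target, was higher on every SmoM2 array. It measured 11.73, 11.70 and 11.67 in SmoM2 against 10.36, 10.49 and 10.42 in wild type (log2 signal; adjusted p = 0.000175). Signals of the 31 vessel genes ran from 7.99 to 11.89 log2 units. All 31 lay on every array above the median of olfactory and vomeronasal receptor genes, which the stomach is not known to use and which stood between 6.16 and 6.40. The mean of 3 Y-linked genes (Eif2s3y, Kdm5d and Uty) was 8.71, 8.94 and 9.27 in SmoM2 1 to 3 and 10.37, 9.92 and 9.07 in wild type 1 to 3, so wild type 1 and 2 held more of this signal than the other 4 arrays. Xist, the RNA of the inactive X chromosome, measured 11.93, 12.37 and 11.43 in SmoM2 and 7.11, 11.94 and 11.68 in wild type. By Xist only wild type 1 stood apart, and wild type 2 had high Xist beside a Y-linked mean above that of SmoM2 1 to 3 and wild type 3. On every array the Y-linked mean lay above the median of the olfactory and vomeronasal receptor genes. The level of these Y-linked probe sets without a Y chromosome is not known here.

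Of the 31 genes 0 changed at an adjusted p under 0.05 (limma, adjusted over all 19938 genes), a threshold that 0.983% of all genes passed. An unadjusted p under 0.05 was reached by Kdr, Stab1, Prox1, Tek, Eng, Flt1, Cdh5 and Stab2, 8 genes in all, where 10.5% of all genes reached it. Each of the 8 was lower in SmoM2, which makes 25.8% of the group, while 7.24% of all genes passed this unadjusted p in that direction. No vessel gene passed it as higher, against 3.29% of all genes. Without wild type 1 the number fell to 5, and these were Kdr, Stab1, Prox1, Tek and Eng, with 4.30% of all genes lower. With the Y-linked mean added to the fit 0 of 31 passed the unadjusted p, with 2.55% of all genes lower. In that fit the 8 changes all stayed negative, from -0.14 for Prox1 and Flt1 to -0.26 for Kdr and Stab1. All 3 SmoM2 arrays lay below wild type 1 and 2 in this mean, so genotype and Y-linked signal cannot be fully told apart here.

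The differences were small. Changes of the 31 genes (SmoM2 minus wild type) lay between -0.44 and 0.10 log2 units with a median of -0.07, and the median over all genes was 0.00. Of the 31, 23 had a negative change (74.2%), against 49.2% of all genes. In 10 of the 31 (32.3%) every SmoM2 value lay below every wild type value, and 10.1% of all genes showed this. No vessel gene had every SmoM2 value above every wild type value, which 5.64% of all genes did. These shares and those at the unadjusted p describe a list chosen with earlier results known, and do not test it. Replicates of a vessel gene differed by a median SD of 0.09 log2 units, close to the 0.10 of all genes. The arrays read all cells of the stomach together, so fewer endothelial cells and less RNA per endothelial cell cannot be told apart.

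**Figure D1:**
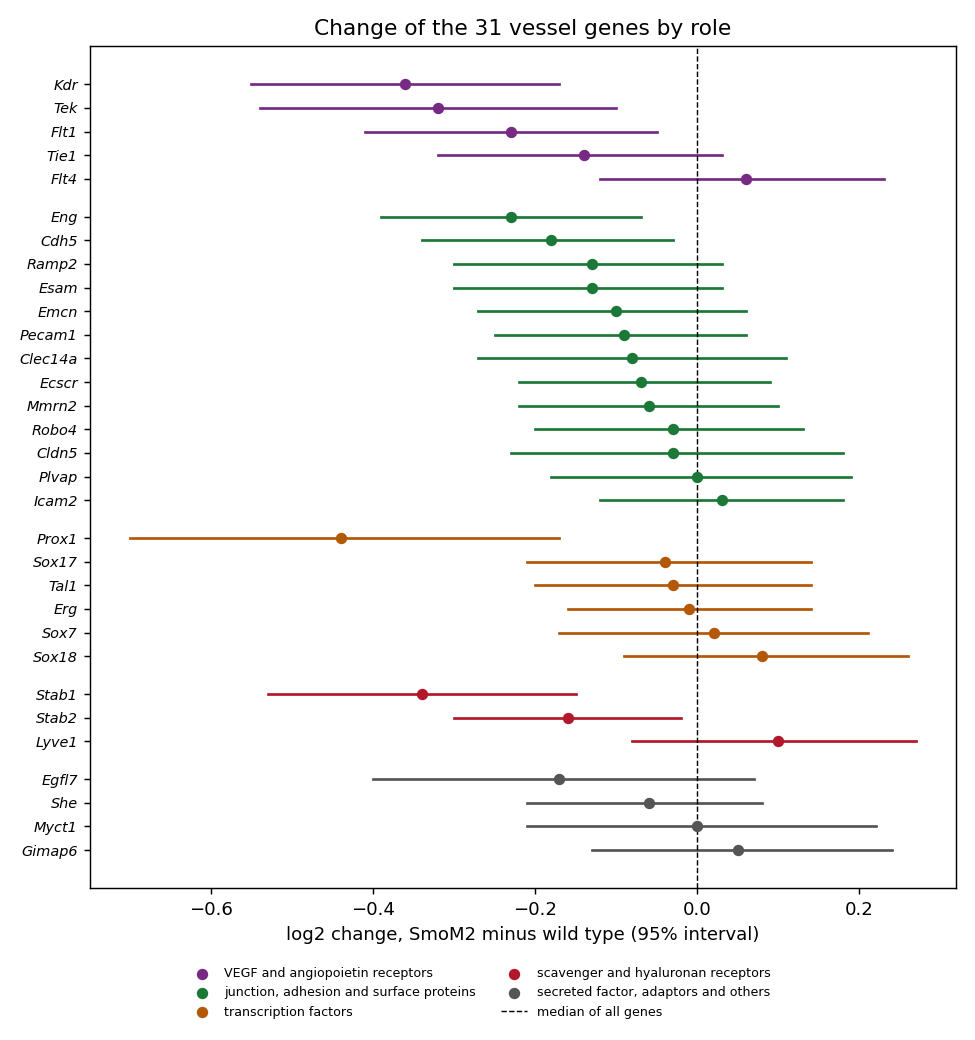
Log2 change (SmoM2 minus wild type, x axis) of each of the 31 vessel genes, grouped by role, with bars for the 95% interval of the limma fit and a dashed line at the median of all genes. Kdr, Tek, Prox1 and Stab1 lie farthest to the left, while Erg, Plvap and Myct1 sit on the line.

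The promoters of the 4 genes with the smallest p are shown because these genes carried the largest differences and lay lower together in SmoM2. The sequences are from a RefSeq promoter table on GRCm38.p6, in which 19 of the 31 genes were matched, and each runs 5′ to 3′ from 250 bases before the transcript start to 50 after it. For Prox1, with 2 starts in the table, the first listed is given. Capitals mark matches to motifs of factor families known from endothelium, searched on both strands. For the ETS family the letters were CAGGAAG and, as another form, CCGGAAG. For the SOX family they were AACAAT and for the GATA family AGATAA. The E-box, bound by Tal1 among others, was searched as CAGCTG and as the variant CAGATG. The GLI core ACCACCC, for the factors of the hedgehog pathway, was searched as well. No marked motif overlaps another.
Kdr (chr5:75978406-75978705, minus strand): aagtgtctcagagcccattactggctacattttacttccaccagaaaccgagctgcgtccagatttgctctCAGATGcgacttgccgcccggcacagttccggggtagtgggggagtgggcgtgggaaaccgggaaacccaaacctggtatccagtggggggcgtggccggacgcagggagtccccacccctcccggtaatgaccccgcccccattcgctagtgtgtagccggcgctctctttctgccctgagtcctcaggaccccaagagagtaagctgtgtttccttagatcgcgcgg
Stab1 (chr14:31168592-31168891, minus strand): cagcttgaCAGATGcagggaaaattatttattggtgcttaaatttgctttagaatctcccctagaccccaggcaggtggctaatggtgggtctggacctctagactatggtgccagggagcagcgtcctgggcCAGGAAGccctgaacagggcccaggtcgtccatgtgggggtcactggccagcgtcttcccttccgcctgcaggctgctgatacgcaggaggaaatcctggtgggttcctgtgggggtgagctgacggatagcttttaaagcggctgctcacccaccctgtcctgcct
Prox1 (chr1:190170778-190171077, minus strand): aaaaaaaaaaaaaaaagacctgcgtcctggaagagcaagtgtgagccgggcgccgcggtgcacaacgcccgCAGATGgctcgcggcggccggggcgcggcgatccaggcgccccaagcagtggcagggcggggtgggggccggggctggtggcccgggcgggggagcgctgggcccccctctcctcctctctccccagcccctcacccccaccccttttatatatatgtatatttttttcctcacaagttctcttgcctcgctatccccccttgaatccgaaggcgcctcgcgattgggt
Tek (chr4:94739039-94739338, plus strand): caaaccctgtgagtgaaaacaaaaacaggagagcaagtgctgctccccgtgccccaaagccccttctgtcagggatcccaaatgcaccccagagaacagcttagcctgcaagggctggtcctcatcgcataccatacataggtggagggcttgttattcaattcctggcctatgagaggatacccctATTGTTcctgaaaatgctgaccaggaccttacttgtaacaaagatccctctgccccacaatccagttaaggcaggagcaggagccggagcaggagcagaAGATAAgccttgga
Kdr, Stab1 and Prox1 each hold the E-box CAGATG, Stab1 holds an ETS match as well, and Tek holds a SOX match and a GATA match. Over the first listed promoters of the 19 genes, ETS matches stood in 4 (21.1%, against 20.9% of all 32851 promoters) and SOX matches in 2 (10.5% against 10.7%). GATA matches stood in 3 (15.8% against 11.2%) and E-boxes in 8 (42.1% against 30.6%). The GLI core stood in 1, that of Robo4 (5.26% against 4.61%). These shares describe the letters of this window only.

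The growth factor receptors held 3 of the 8 genes named above (7.24% of all genes were lower at this p). In 4 of the 5 every SmoM2 value lay below wild type, as in 10.1% of all genes (summed linear signal 3.89 to 4.49 in SmoM2 and 4.79 to 5.17 in wild type, in units of 1000). Kdr, the main signalling receptor for vascular endothelial growth factor A, measured 10.28, 10.47 and 10.28 in SmoM2 and 10.77, 10.77 and 10.58 in wild type (log2 change -0.36, SE 0.08, 95% interval -0.55 to -0.17, adjusted p = 0.101). The groups did not overlap, and the lowest wild type array was wild type 3. Flt1, a receptor that binds the same ligand tightly and limits its action, measured 9.42, 9.52 and 9.39 in SmoM2 and 9.79, 9.63 and 9.59 in wild type (log2 change -0.23, SE 0.08, unadjusted p = 0.0167, adjusted p = 0.304). Here too the groups were apart, by less than the spread within wild type.

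Tek, the angiopoietin receptor, measured 9.75, 10.12 and 10.03 in SmoM2 and 10.34, 10.24 and 10.29 in wild type (log2 change -0.32, SE 0.10, adjusted p = 0.225). SmoM2 1 was the lowest array, and without it the change of Tek was -0.21, over 1.5 times smaller. Tie1, the related receptor that modulates Tek, stood at 9.37, 9.49 and 9.62 in SmoM2 and 9.64, 9.65 and 9.62 in wild type (log2 change -0.14, adjusted p = 0.601). SmoM2 3 and wild type 3 had nearly the same Tie1 signal, and without SmoM2 1 the change of Tie1 was -0.08. Flt4, the receptor for the growth factors C and D and a marker of lymphatic endothelium, had 8.79, 8.99 and 8.94 in SmoM2 and 8.80, 8.93 and 8.83 in wild type. Its groups overlapped (log2 change 0.06, 95% interval -0.12 to 0.23, adjusted p = 0.876). Kdr, Flt1, Tek and Tie1 thus had every SmoM2 array lower, and Flt4 did not.

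**Figure D2:**
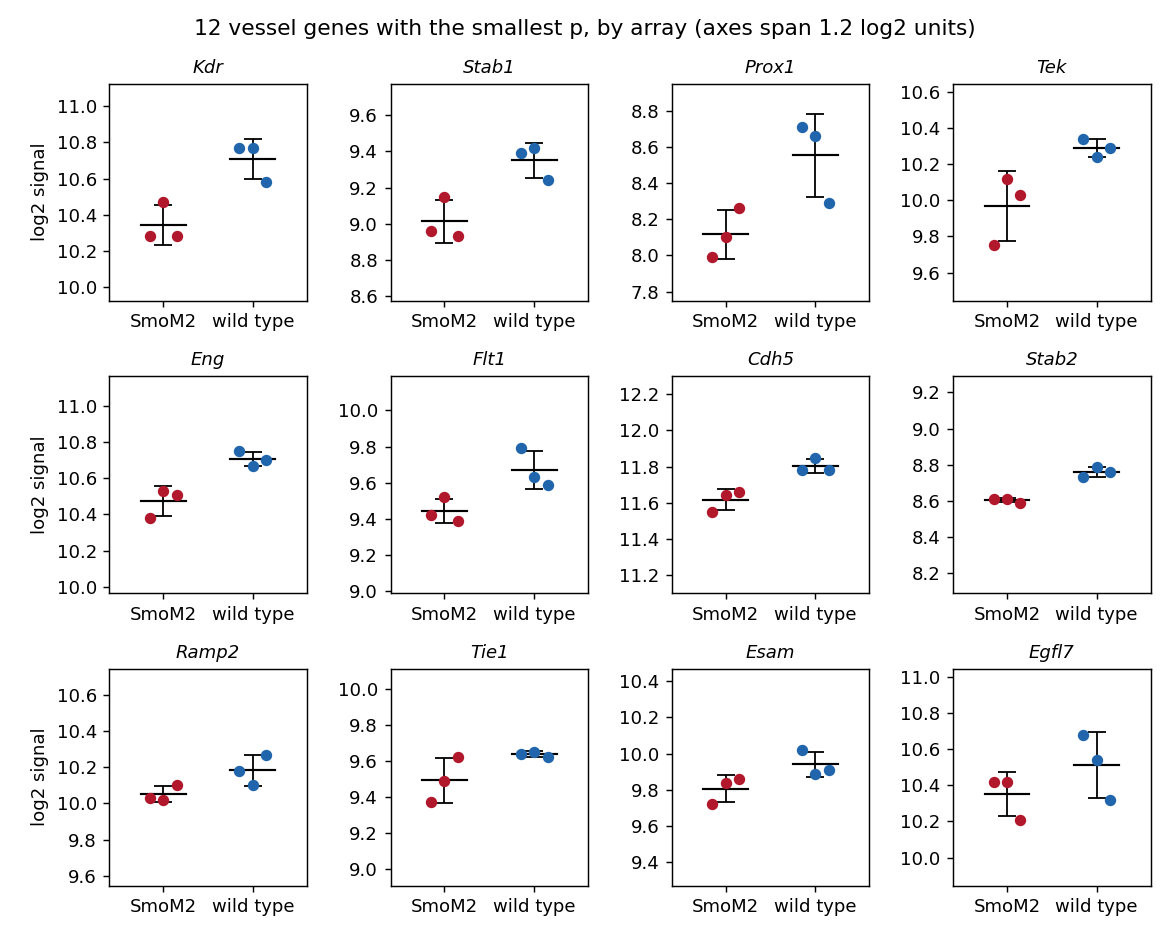
Log2 signal of the 12 vessel genes with the smallest p on each array (SmoM2 left, wild type right; lines and bars are mean ± SD, n = 3). The groups of Kdr, Stab1, Tek, Eng and Cdh5 do not overlap, Prox1 reaches from 7.99 to 8.26 in SmoM2 and from 8.29 to 8.71 in wild type, and Ramp2 and Egfl7 overlap.

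Ligands of these receptors were read from a list of 21 measured vascular ligands and their partners, of which 0 passed the adjusted threshold and 4 an unadjusted p under 0.05, all 4 lower in SmoM2 (7.24% of all genes were). Angpt1, the activating ligand of Tek, had the largest difference of the list. It measured 8.67, 9.12 and 9.08 in SmoM2 and 9.40, 9.45 and 9.49 in wild type (log2 change -0.49, SE 0.12, adjusted p = 0.105), so that all 3 SmoM2 arrays lay below wild type, as for Tek itself. Calcrl, which forms the adrenomedullin receptor with the vessel gene Ramp2, was at -0.29 (adjusted p = 0.178), and Adamts3, a protease that helps to activate growth factor C, at -0.22 in the brightest of its 16 probe sets (adjusted p = 0.285). Vegfa, the ligand of Kdr and Flt1, overlapped between the groups, with 10.44, 10.56 and 10.37 in SmoM2 and 10.49, 10.49 and 10.39 in wild type (log2 change 0.00, 95% interval -0.17 to 0.16, adjusted p = 0.994). Vegfc, the main ligand of Flt4, had a change of -0.02 (95% interval -0.22 to 0.18, adjusted p = 0.976). Vegfa and Vegfc were named after their values were seen, since the receptors bind them.

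Among 13 junction, adhesion and surface proteins 11 had a negative change (84.6%, against 49.2% of all genes), with a median of -0.08. An unadjusted p under 0.05 was reached by 2, both lower (15.4%, against 7.24% of all genes). Every SmoM2 value lay below every wild type value in 3 of the 13 (23.1%, against 10.1% of all genes). Eng, a coreceptor for the transforming growth factor beta family on endothelium, measured 10.38, 10.53 and 10.51 in SmoM2 and 10.75, 10.67 and 10.70 in wild type (log2 change -0.23, SE 0.07, adjusted p = 0.231). Cdh5, the cadherin of endothelial junctions, measured 11.55, 11.64 and 11.66 in SmoM2 and 11.78, 11.85 and 11.78 in wild type (log2 change -0.18, SE 0.07, adjusted p = 0.346). In both genes the arrays of the groups did not overlap, and SmoM2 1 was the lowest of the 6. Ramp2, the partner of Calcrl, measured 10.03, 10.02 and 10.10 in SmoM2 and 10.18, 10.10 and 10.27 in wild type (log2 change -0.13, adjusted p = 0.592). Esam, an adhesion molecule of tight junctions, measured 9.72, 9.84 and 9.86 in SmoM2 and 10.02, 9.89 and 9.91 in wild type (log2 change -0.13, adjusted p = 0.608). Ramp2 overlapped between the groups, and Esam was separated by a narrow margin.

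The other 9 surface genes overlapped between the groups. Emcn, a mucin-like protein of veins and capillaries, was at -0.10 and Pecam1, an adhesion molecule of all endothelium, at -0.09. Clec14a, a lectin-like surface protein, was at -0.08, Ecscr, a regulator of endothelial migration, at -0.07, and Mmrn2, a matrix protein that binds Clec14a, at -0.06. Robo4, a guidance receptor that steadies vessels, and Cldn5, the claudin of endothelial tight junctions, were both at -0.03. Plvap, which forms the diaphragms of fenestrated vessels, was at 0.00 (95% interval -0.18 to 0.19) and Icam2, an adhesion molecule for leukocytes, at 0.03 (95% interval -0.12 to 0.18). Adjusted p ran from 0.718 for Emcn to 0.998 for Plvap. The interval of Plvap includes the change of Ramp2 (-0.13) and that of Icam2 includes the change of Emcn, so a like level in both groups is not shown.

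The transcription factors were split between Prox1 and the rest. Prox1, the homeobox factor of lymphatic fate, measured 7.99, 8.10 and 8.26 in SmoM2 and 8.71, 8.66 and 8.29 in wild type (log2 change -0.44, SE 0.12, 95% interval -0.70 to -0.17, adjusted p = 0.158). Its change was the most negative of the 31 genes, but SmoM2 3 and wild type 3 nearly met. Without wild type 3 the change of Prox1 was -0.57 and passed the threshold (adjusted p = 0.0257), and with the Y-linked mean in the fit it was -0.14. The 5 others are Erg, an ETS factor that keeps endothelial identity, Sox7, Sox17 and Sox18, SOX factors of arterial and lymphatic development, and Tal1, a factor of blood and endothelial precursors. They had changes of -0.01, 0.02, -0.04, 0.08 and -0.03, in that order, and all overlapped between the groups (adjusted p from 0.802 to 0.989). Erg had the narrowest of these intervals, -0.16 to 0.14. It measured 9.55, 9.61 and 9.57 in SmoM2 and 9.60, 9.51 and 9.63 in wild type.

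Prox1 is not made by lymphatic endothelium alone: developing neurons, pancreas and hormone cells and liver use it as well. Markers of enteric neurons and glia were read beside it, with 5 of 10 measured genes past the adjusted threshold as lower (0.657% of all genes were) and 0 as higher, and a summed linear signal, in units of 1000 here and in what follows, of 10.5 to 12.1 in SmoM2 and 13.1 to 15.2 in wild type. The 5 that fell were Dcx, Nefm, Nefl, Dbh and Fabp7. Ednrb, a receptor of enteric precursors, Sox10, a factor of glia and precursors, and Ret, a receptor of enteric neurons and precursors, had positive changes of 0.32, 0.11 and 0.05 (adjusted p = 0.277, 0.756 and 0.904), given after their values were seen. In the pancreas and hormone cell list 2 of 11 passed as lower and 0 as higher, with summed signals of 8.93 to 9.18 in SmoM2 and 12 to 15.5 in wild type. Dcx, of young neurons, was at -1.07 (adjusted p = 0.0066). Cpa1, a pancreatic enzyme, was at -0.98 and Gcg, the hormone glucagon, at -0.86 (adjusted p = 0.0258 and 0.0168). A positive change stood in 4 of the 11 pancreas and hormone cell genes, from 0.02 for Ghrl to 0.16 for Ptf1a (adjusted p = 0.98 and 0.499). Ptf1a was higher on every SmoM2 array, as were 5.64% of all genes, and both were named after their values were seen. In the liver list 0 of 13 passed the adjusted threshold. An unadjusted p under 0.05 was reached by 5, of which 4 were lower (30.8%, against 7.24% of all genes) and 1 higher. A positive change stood in 9 of the 13. The largest changes were -0.63 for Ambp, 0.61 for Alb and 0.52 for Ahsg (adjusted p = 0.0572, 0.752 and 0.425). The summed signal of the list, in which the bright Alb weighs much, overlapped, at 10.4 to 18.8 in SmoM2 and 11.4 to 18.6 in wild type. The part of these cells in the Prox1 signal was not tested. Of 14 other genes of a lymphatic list 0 passed the adjusted threshold and 2 had an unadjusted p under 0.05, both lower (14.3%, against 7.24% of all genes). These were Calcrl and Reln, a glycoprotein of lymphatic endothelium and neurons (log2 change -0.22, adjusted p = 0.326), and the median of the list was -0.05. Pdpn, a mucin-type marker of lymphatic endothelium that mesothelium also makes, was at 0.02 (95% interval -0.20 to 0.24; named after its value was seen).

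The scavenger and hyaluronan receptors differed among themselves. Stab1, a scavenger receptor of sinusoidal and lymphatic endothelium and of macrophages, measured 8.96, 9.15 and 8.93 in SmoM2 and 9.39, 9.42 and 9.24 in wild type (log2 change -0.34, SE 0.09, adjusted p = 0.128). Stab2, its relative in sinusoidal endothelium, measured 8.61, 8.61 and 8.59 in SmoM2 and 8.73, 8.79 and 8.76 in wild type (log2 change -0.16, SE 0.06, adjusted p = 0.405). Neither gene overlapped between the groups, and the Stab2 replicates had an SD of 0.01 in SmoM2 and 0.03 in wild type. Lyve1, the hyaluronan receptor of lymphatic endothelium and of some macrophages, measured 9.60, 9.79 and 9.84 in SmoM2 and 9.64, 9.64 and 9.67 in wild type (log2 change 0.10, 95% interval -0.08 to 0.27, adjusted p = 0.772). Without SmoM2 1 Lyve1 had an unadjusted p under 0.05 as higher.

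Macrophage and leukocyte markers were read beside Stab1. Of 24 measured, 0 passed the adjusted threshold, 10 passed an unadjusted p under 0.05 and each of these was lower (41.7%, against 7.24% of all genes). In 9 of the 24 every SmoM2 value lay below every wild type value (37.5%, against 10.1% of all genes). The groups overlapped in 14 of the 24, beside 16802 of all 19938 genes. A negative change stood in 20 (83.3%, against 49.2% of all genes) and a positive one in 4, among them Cd14 and Cd163. Cd14, a receptor for bacterial lipopolysaccharide, was at 0.15 (adjusted p = 0.545) and above wild type on every SmoM2 array, as were 5.64% of all genes. Cd163, a macrophage scavenger receptor, was at 0.11 (adjusted p = 0.765). Cd14 and Cd163 were named after their values were seen. The summed linear signal of the 24 was 9.91 to 10.9 in SmoM2 and 11.7 to 12.1 in wild type, and the lowest signal of the list was 7.19 log2 units, above the level of the olfactory receptor genes. Pf4, a chemokine of platelets and macrophages, was at -0.48, Lyz2, a lysozyme, at -0.39 and Cd68, a lysosomal protein of macrophages, at -0.37 (adjusted p = 0.205, 0.0739 and 0.247). Among 14 erythroid genes, which include Tal1, 0 passed and 5 had an unadjusted p under 0.05, all lower (35.7%, against 7.24% of all genes), with summed signals of 42.2 to 46.2 in SmoM2 and 47.5 to 52.8 in wild type. The embryonic globin Hbb-bh1 was at -0.38, Alas2, of heme synthesis, at -0.37 and Hemgn, a nuclear factor of blood precursors, at -0.36 (adjusted p = 0.215, 0.0928 and 0.0856). The summed signal of the 31 vessel genes was 30.3 to 32.8 in SmoM2 and 33.9 to 34.7 in wild type. The part of macrophages and of blood within the vessels in these results was not tested.

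The last 4 genes are of mixed function, and 0 of them had an unadjusted p under 0.05. Egfl7, a secreted protein of the vessel matrix, measured 10.42, 10.42 and 10.21 in SmoM2 and 10.68, 10.54 and 10.32 in wild type (log2 change -0.17, SE 0.10, adjusted p = 0.670). Both groups spread widely here, and wild type 3 lay below SmoM2 1 and 2. The change of Egfl7 was -0.08 without wild type 1, -0.09 without SmoM2 3 and -0.26 without wild type 3. She, an adaptor protein, was at -0.06, Myct1, a membrane protein of endothelium, at 0.00 and Gimap6, a GTPase of endothelium and lymphocytes, at 0.05. An intron of Egfl7 encodes a microRNA that restrains inhibitors of growth factor signalling in endothelium, and its sequence is shown because it shares the transcript of a vessel gene. The mature form is given from RefSeq (GRCm38.p6, chr2:26591402-26591423, plus strand), with the seed, bases 2 to 8, in capitals.
mmu-miR-126a-3p: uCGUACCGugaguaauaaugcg
The probe set of its precursor, Mir126a, lay between 4.95 and 5.20 on the 6 arrays, below the level of the olfactory receptor genes, and gives no reading of the mature form.

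**Figure D3:**
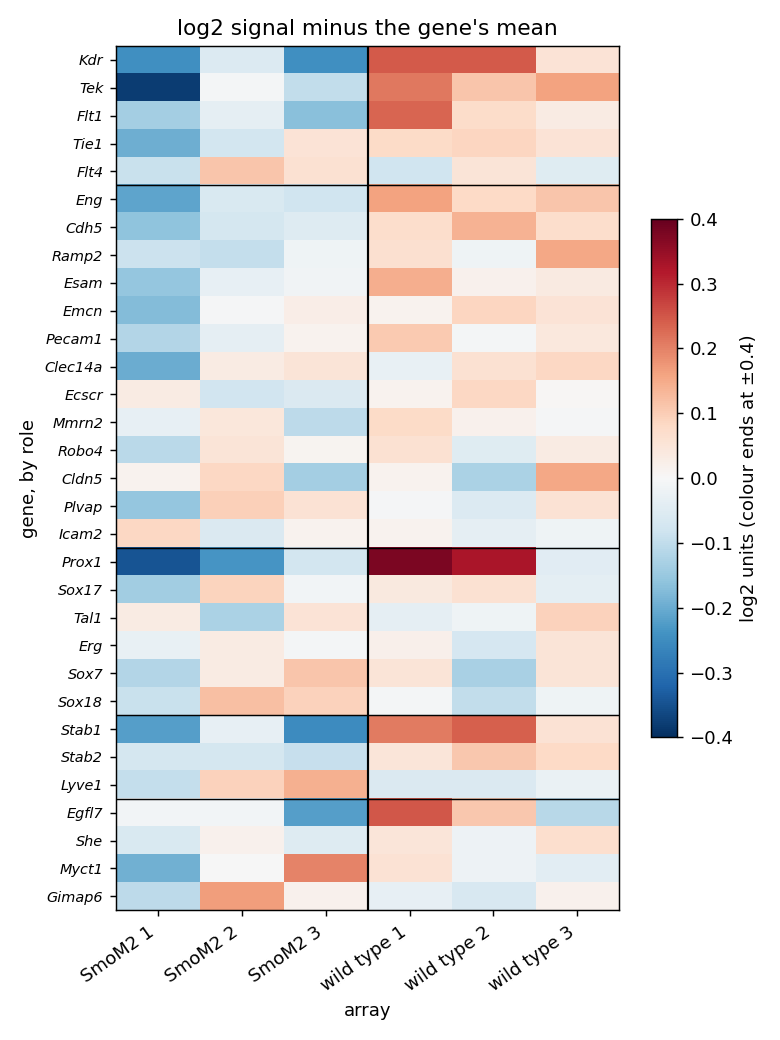
Log2 signal of each of the 31 vessel genes on each array after subtracting the gene's mean over the 6 arrays (red above, blue below; rows by role, SmoM2 columns left of wild type). SmoM2 1 is the lowest of the 6 arrays for 18 genes (not counted over all genes). Prox1, Kdr, Stab1 and Tek have changes of -0.44, -0.36, -0.34 and -0.32.

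The 3 SmoM2 arrays did not carry the difference equally. SmoM2 1 was the lowest of the 6 arrays for 18 of the 31 genes, SmoM2 2 for 4 and SmoM2 3 for 6. Wild type 1, 2 and 3 were the lowest for 0, 3 and 0. These counts were not made over all genes, so a trait of the vessel genes alone is not shown. The median deviation of the 31 genes from their own means was -0.11 on SmoM2 1 and -0.01 on both SmoM2 2 and SmoM2 3, against 0.05, 0.02 and 0.05 on wild type 1, 2 and 3. Without SmoM2 1 there were 20 genes with a negative change in place of 23. In that fit, where 9.63% of all genes had an unadjusted p under 0.05, 8 of the 31 did. Of these, 7 were among the 8 named above, Cdh5 had left and Lyve1 had entered as higher. The genes Kdr, Stab1, Prox1, Tek and Eng had an unadjusted p under 0.05 whichever array was left out.

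Vessel genes outside the 31 were read from further lists. Of 29 other endothelial genes 0 passed the adjusted threshold and 4 had an unadjusted p under 0.05, of which 2 were lower (6.90%, against 7.24% of all genes) and 2 higher, with a median change of -0.07. Ptprb, a phosphatase that acts on Tek and Cdh5, had the largest difference. It measured 8.78, 9.03 and 9.05 in SmoM2 and 9.42, 9.39 and 9.31 in wild type (log2 change -0.42, SE 0.09, adjusted p = 0.0663), and its groups did not overlap. Adgrf5, an adhesion receptor of endothelium, was at -0.21 (adjusted p = 0.621). Ldb2, a LIM domain binding factor that mesenchyme makes as well, was at 0.20 and higher on every SmoM2 array (adjusted p = 0.249).

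Of 14 arterial genes 1 passed the adjusted threshold, as lower, which 0.657% of all genes did. An unadjusted p under 0.05 was reached by 7, all lower, where 7.24% of all genes were lower at this p, and the median was -0.16. Hey2, a Notch target of arteries that smooth muscle precursors also use, fell 1.75-fold, with 8.75, 8.89 and 8.94 in SmoM2 and 9.73, 9.73 and 9.54 in wild type (log2 change -0.80, SE 0.08, adjusted p = 0.00373). Gja5, a connexin of arterial endothelium, measured 9.05, 9.49 and 9.35 in SmoM2 and 9.76, 9.77 and 9.78 in wild type (log2 change -0.47, SE 0.10, adjusted p = 0.0872). The 3 wild type arrays agree closely in Gja5 and lie above every SmoM2 array. Jag1, a Notch ligand, was at -0.29 (adjusted p = 0.261). In 8 of the 14 every SmoM2 value lay below every wild type value (57.1%, against 10.1% of all genes). The groups overlapped in the other 6, among them Dll4, Gja4 and Notch4 at 0.03, 0.00 and -0.04, named after their values were seen. In the venous list, which holds Emcn too, 1 of 7 passed, Flrt2, a guidance protein found in mesenchyme too, which fell 1.59-fold (adjusted p = 0.00466). Nr2f2, the factor of venous fate that mesenchyme also makes, was at -0.44 (adjusted p = 0.0535), and Ephb4, the venous ephrin receptor, at -0.14 (adjusted p = 0.628).

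Markers of pericytes and other mural cells, which wrap the vessels, were also read. Of 13 measured, 1 passed the adjusted threshold as lower, which 0.657% of all genes did. An unadjusted p under 0.05 was reached by 4, all lower (30.8%, against 7.24% of all genes), and the median was -0.11. A positive change stood in 5 of the 13, from 0.03 for Cox4i2 to 0.14 for Higd1b, and the groups overlapped in each of these, which were named after their values were seen. Rgs5, a pericyte regulator of G protein signalling, fell 1.65-fold, with 9.19, 9.44 and 9.33 in SmoM2 and 10.16, 10.07 and 9.89 in wild type (log2 change -0.72, SE 0.09, adjusted p = 0.0113). Pdgfrb, the receptor that recruits pericytes and is widely made in mesenchyme, was at -0.35 (adjusted p = 0.0508), and Anpep, an aminopeptidase of pericytes and epithelium, at -0.40 (adjusted p = 0.0574). The summed signal of the list was 8.64 to 8.84 in SmoM2 and 9.70 to 10.3 in wild type. Stomach epithelium and mesenchyme markers moved in both directions beside it, with Cdh1 and Epcam of the epithelium lower (-0.58 and -0.48) and Acta2, a smooth muscle actin, higher (0.47; adjusted p = 0.0111, 0.0341 and 0.0436), and their part in the vessel results was not tested.

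**Figure D4:**
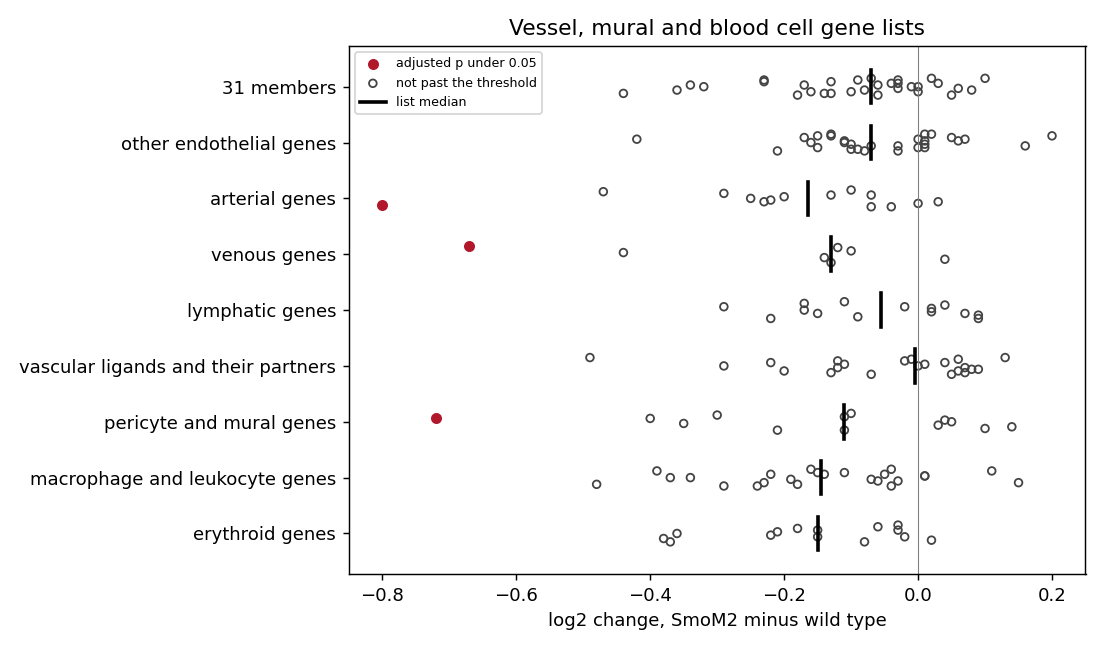
Log2 change (SmoM2 minus wild type, x axis) of each gene in the 31 vessel genes ("31 members") and in 8 further lists, with a black bar at each list's median and filled points for genes past the adjusted threshold. The filled points are Hey2, Flrt2 and Rgs5, all outside the 31, and the medians run from -0.16 for arterial genes to 0.00 for vascular ligands.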

How the data were processed

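The authors deposited log2 signals of 35556 probe sets on 6 arrays. RMA and affy come from the submitters' processing notes; no version of either was found. RMA brings arrays to a like distribution and compresses low signals, and array medians ran from 8.56 to 8.62. Probe sets were named through the platform annotation, in which 21789 had 1 symbol. The groups were fitted by limma 3.58.1 under R 4.3.3 (lmFit, eBayes) over all 19938 genes, with Benjamini-Hochberg adjustment and a threshold of 0.05. The fit was run on simulated data with known changes and noise drawn independently for each gene and array. This was a check on the size of the estimates and held no array or sex effect. No label says that replicates were separate embryos, so each p-value measures only how these samples vary, which may be technical. The number of arrays limits the precision. Summed signals add unlogged values, and bright probe sets weigh most in them.

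The 31 genes and the other lists were chosen with earlier results of these data known. By rule, the 12 genes with the smallest p were given in full, and from each other list up to 3 with the largest change. Symbols of the lists were updated through RefSeq synonyms. Alternatives covered arrays left out, the replicate block, filters, scaling, variance models, array weights and the Y-linked mean.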

Additional observations from a re-analysis of the deposited data

How the results depend on the processing

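The number of vessel genes past the adjusted threshold was 0 as reported and in the alternatives not named here. It was 0 to 1 with 1 array left out, 3 with the replicate block (Kdr, Stab1 and Prox1), 1 with an intensity trend (Kdr, adjusted p = 0.0488) and 9 with array weights. The array weights ran from 0.327 for SmoM2 1 to 6.02 for SmoM2 3, their estimation stopped before convergence, and 4110 genes of all passed in that fit. An unadjusted p under 0.05 held for 10.5% of all genes, 6.49% to 15.9% with 1 array left out and 35.6% with array weights. The vessel gene count at this p, 8 as reported, was 5 to 8 with 1 array left out and 14 (3 higher) with array weights. It was 0 with the Y-linked mean in the fit and 0 with wild type 3 alone against SmoM2, an alternative chosen after seeing the data. The cause of these shifts was not tested. The median change of the 31 genes, -0.07, was -0.10 to -0.05 with 1 array left out, -0.03 with repeated quantile normalization or centring on the 75th percentile, which moved the median of all genes to 0.03 and 0.04, and -0.10 with wild type 3 alone. Egfl7 turned to 0.03 there, and no other of the 12 genes given in full changed sign in any alternative. Over all genes 196 passed the adjusted threshold, and 32 to 247 did with 1 array left out. This number was 291 among probe sets at or above the median signal, 120 with centring and 22 with the Y-linked covariate. Genes of the other lists past the adjusted threshold, with Hey2, Flrt2 and Rgs5 the only ones of vessel or mural lists, numbered 14. They were 4 to 17 with 1 array left out (8 without SmoM2 1, 4 without SmoM2 3 and 7 without wild type 1), 36 with the replicate block, 23 among probe sets at or above the median signal, 9 with centring, 66 with array weights, 2 with the Y-linked covariate, and 0 without variance moderation, with every probe set as a row and with wild type 3 alone. The labels do not say whether same-numbered arrays share more than a number. The deviations of replicates 1, 2 and 3 from their group means correlated at -0.10, 0.52 and 0.06 over all genes. The replicate block raised the calls over all genes to 698, against 196 without it. All 31 genes stood above the median of the olfactory and vomeronasal receptor genes, which does not show that background had no part in their values. Prox1, with means of 8.11 in SmoM2 and 8.55 in wild type, lay below the median probe set signal of 8.58, as did Clec14a. The fit of probe sets at or above that signal thus held 29 of the 31 genes and gives no value for Prox1.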
